A study of Mus musculus with 12 samples.

Results

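Glucocorticoid-induced genes are those that the glucocorticoid receptor switches on when it binds cortisol, or corticosterone in mice. The 9 genes described here are Klf9, Tsc22d3, Fkbp5, Sgk1, Zbtb16, Errfi1, Ddit4 and Cebpd, each known to be induced by glucocorticoids in other settings, and Nr3c1, the gene of the receptor itself. They were taken from 43430 genes by matching Ensembl identifiers to these symbols, and the set was chosen on the strong rise of Klf9 at 2 h in these same libraries. Differences at 2 h against naive are therefore given as descriptions without a test, and Klf9 is described without a test at every time. Of the 9 genes, 8 were among the 11419 that passed the filter on low values, which asked for 1 RPKM or more (reads scaled to gene length and library size) in no fewer than 4 of the 12 libraries, and Zbtb16 did not.

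The study sequenced polyadenylated RNA of alveolar macrophages, the resident phagocytes of the airspaces, from lungs of a mouse lung transplant model, in 4 naive libraries, 4 from 2 h after reperfusion and 4 from 24 h after it. All 12 libraries are labelled as from male mice of 14 weeks that carry Cx3cr1gfp/+ on the B6 background, a reporter allele with GFP in the Cx3cr1 gene. The labels do not say whether this genotype is that of the graft or of the recipient, name no drug given to the animals and no time of day of collection, and leave the word Allo in the titles of the reperfusion libraries unexplained. No label ties a library to an animal of its own, so a p-value here reflects only how far these libraries spread, and that spread may be technical.

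The receptor rests in the cytoplasm in a complex with the chaperone Hsp90 and its helpers. Once bound by hormone it enters the nucleus, binds response elements near its target genes, and holds down inflammatory transcription through NF-kB and AP-1. In lung macrophages it is best known for lowering cytokine and chemokine output and for inducing feedback genes, among them Tsc22d3, whose protein restrains NF-kB and AP-1, and Fkbp5, whose protein lowers the receptor's affinity for hormone.

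Library totals were 6112586 to 8796071 reads in the naive group, 7242824 to 10347265 at 2 h, and 9129420 to 11997945 at 24 h. The summed RPKM of 11 alveolar macrophage markers was 11328.5 to 11704.9 in naive libraries, 7874.9 to 9183.59 at 2 h and 9514.82 to 11300.3 at 24 h. Chil3 carried most of this sum, with means of 7780, 4970 and 7802 RPKM. At 2 h against naive 2 of the 11 were called higher, Plet1 and Mrc1, and 4 lower, Krt19, Pparg, Chil3 and Cidec. The shares over all tested genes were 14.7% and 22.0%. By 24 h 2 were higher than naive, Marco and Car4, and 7 were lower, Plet1 and Mrc1 among them, beside 25.3% and 20.6% of all tested genes. Marker sums of the other cell types were far lower but moved with the groups. The sum of 9 neutrophil markers was 26.2 to 35.0 in naive and 41.7 to 48.0 at 24 h. That of 9 lymphocyte markers was 10.03 to 16.9 in naive and 1.03 to 3.54 at 24 h. For 8 epithelial and stromal markers it was 56.3 to 60.6 in naive and 23.2 to 33.2 at 24 h, where Epcam averaged 42.5 and 12.2 RPKM. The 5 interstitial macrophage markers summed to 6.02 to 9.83 in naive, 2.40 to 4.99 at 2 h and 2.99 to 8.69 at 24 h. The neutrophil sum rose through S100a8 (10.2 to 29.8 RPKM on average), while Csf3r fell from 6.51 to 2.01 and Ly6g, which defines neutrophils, was at 0 in all 8 naive and 24 h libraries. The 8 monocyte markers summed to 14.3 to 18.8 in naive, 17.5 to 112.9 at 2 h and 5.76 to 9.94 at 24 h. At 2 h Nr4a1, a gene of early activation as well as of monocytes, reached 108 RPKM in replicate 1. Ccr2 went the other way at 2 h, from 1.41 to 0.595 RPKM on average, and Treml4 stayed near its naive level (3.77 and 3.91). The part of these cell types in the results below was not tested, and in bulk libraries fewer cells of a type and less RNA per cell cannot be told apart. In addition, 38 genes averaged 2 RPKM or more at 2 h and had at most 5% of that in naive libraries. This count also asked that every 2 h library lie above every naive library. By the design, transplantation, time and any difference in handling between the groups cannot be told apart.

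The following RefSeq promoter windows are shown because they belong to the member that led the set at 2 h, to the member still high at 24 h and to the member whose window holds a full receptor motif. Each runs 5′ to 3′ on the gene's strand of GRCm38.p6, the assembly of mm10, from 250 bases before to 50 bases after an annotated start site. The Klf9 window is chr19:23140976-23141275 on the + strand, the Fkbp5 window chr17:28486100-28486399 on the - strand, and the Sgk1 window chr10:21993640-21993939 on the + strand, and capitals mark a match to the full glucocorticoid response element.
Klf9: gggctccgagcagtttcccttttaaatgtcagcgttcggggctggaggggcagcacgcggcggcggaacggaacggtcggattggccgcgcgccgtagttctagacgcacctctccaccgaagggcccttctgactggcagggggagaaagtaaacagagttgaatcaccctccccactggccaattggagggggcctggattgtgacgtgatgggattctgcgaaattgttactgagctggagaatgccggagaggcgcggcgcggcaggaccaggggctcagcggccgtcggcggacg
Fkbp5: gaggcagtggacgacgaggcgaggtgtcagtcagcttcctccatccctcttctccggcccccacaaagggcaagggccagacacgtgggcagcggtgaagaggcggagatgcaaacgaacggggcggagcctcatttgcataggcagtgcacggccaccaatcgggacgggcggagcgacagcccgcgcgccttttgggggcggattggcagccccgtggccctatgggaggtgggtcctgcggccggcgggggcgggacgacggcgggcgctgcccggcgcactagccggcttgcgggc
Sgk1: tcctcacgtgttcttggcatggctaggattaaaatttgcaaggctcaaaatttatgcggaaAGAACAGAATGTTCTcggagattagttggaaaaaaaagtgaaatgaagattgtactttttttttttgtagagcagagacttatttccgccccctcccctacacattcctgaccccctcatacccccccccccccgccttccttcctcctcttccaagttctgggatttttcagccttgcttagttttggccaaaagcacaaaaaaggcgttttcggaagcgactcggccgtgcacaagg
The match in the Sgk1 window is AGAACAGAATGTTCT, at position -189 from that start site. The full element was searched as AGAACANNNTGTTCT on both strands and was in 3 of 32851 RefSeq windows of this length (0.00913%). A looser core, GNACANNNTGTNC, which every full element contains, was in 156 windows (0.475%), and its single arm AGAACA, which lies within the full element, was in 6233 (19%). For the members, 14 windows were looked at, of Klf9, Tsc22d3, Fkbp5, Sgk1, Errfi1 and Ddit4. Windows on the chromosome of Nr3c1 were left out for the members but are in the count over all windows. The full element and the core were each in 1 of the 14, the Sgk1 window above, and the single arm was in 4. These letters are a description of the windows only, and the expression values do not tell which of the 6 Sgk1 start sites was used.

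The receptor gene was lower after reperfusion by a small and even amount. Nr3c1 (chr18:39410545-39519421, mm10, - strand) stood at 8.99, 9.42, 8.59 and 9.28 RPKM in naive replicates 1 to 4, at 7.28, 7.70, 7.24 and 7.27 at 2 h, and at 7.86, 7.14, 7.75 and 7.86 at 24 h. Every library of both reperfusion groups was below every naive library. The 2 h mean of 7.37 ± 0.221 (SD, n = 4) was 0.813 of the naive mean of 9.07 ± 0.369 (SD, n = 4), a log2 fold change of -0.27 ± 0.05 (SE). At 24 h the mean was 7.65 ± 0.345 (SD, n = 4), and the fall against naive, -0.22 ± 0.05 (SE) on the log2(RPKM + 1) scale, passed limma's test with an adjusted p of 0.00261. Between 2 h and 24 h the difference was 0.05 ± 0.05 (SE, adjusted p = 0.426).

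Klf9, a zinc-finger transcription factor of the Krüppel-like family, was several times higher at 2 h than in either other group. Klf9 (chr19:23141226-23168134, + strand) was at 8.36, 7.15, 7.53 and 7.72 RPKM in naive libraries, at 46.4, 35.7, 33.4 and 28.1 at 2 h, and at 3.50, 2.997, 5.79 and 8.09 at 24 h. All 4 libraries at 2 h lay far above the naive range, and 3 of 4 at 24 h lay below it, with replicate 4 inside. The mean was 4.67-fold higher at 2 h than in naive (35.9 ± 7.66 against 7.69 ± 0.506, SD, n = 4 each), a log2 fold change of 2.07 ± 0.23 (SE). From 2 h to 24 h the mean was 7.05-fold lower, at 5.09 ± 2.34 (SD, n = 4), with no overlap between the groups. These values rest on 154 to 240 reads per naive library, 665 to 1556 at 2 h and 106 to 241 at 24 h.

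**Figure D1:**
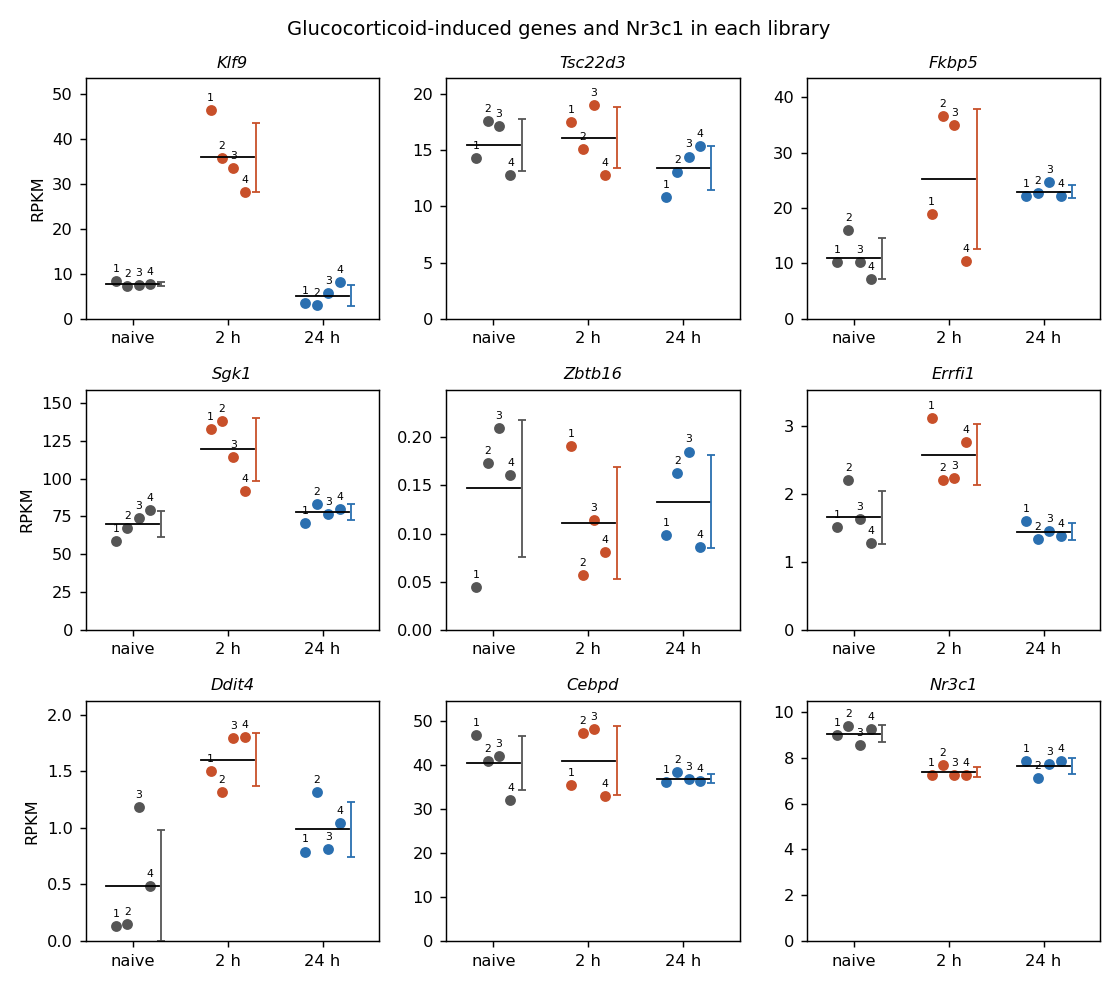
RPKM of the 9 genes (vertical axes, each starting at 0) in the 12 libraries, grouped on the horizontal axis as naive, 2 h and 24 h after reperfusion; points are libraries with their replicate number, black lines group means and vertical bars SD (n = 4). Klf9 is high in all 4 libraries at 2 h, Fkbp5 is as high at 24 h as at 2 h, and Nr3c1 is lower in every library after reperfusion.

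The co-chaperone gene Fkbp5 was higher than naive in all 4 libraries at 24 h and uneven at 2 h. Fkbp5 (chr17:28399094-28517527, - strand) was at 10.3, 16.1, 10.3 and 7.12 RPKM in naive libraries, at 18.9, 36.6, 35.0 and 10.4 at 2 h, and at 22.2, 22.7, 24.7 and 22.2 at 24 h. At 2 h replicates 2 and 3 were high, replicate 1 was just above the highest naive library and replicate 4 was within the naive range, whereas the 24 h libraries were all above naive and close together. The 2 h mean was 2.31-fold the naive mean (25.2 ± 12.7 against 10.9 ± 3.73, SD, n = 4 each), with a log2 fold change of 1.03 ± 0.33 (SE). At 24 h the mean of 22.9 ± 1.17 (SD, n = 4) was 2.10-fold that of naive, a log2 fold change of 1.05 ± 0.33 (SE, limma adjusted p = 0.0223). This call was lost without naive replicate 4 and when no filter was applied, and over 21 other settings the adjusted p lay between 0.00148 and 0.0650. Between 24 h and 2 h the difference was 0.02 ± 0.33 (SE, adjusted p = 0.960).

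Sgk1 and Errfi1 code for a kinase that controls ion transport and survival and for an inhibitor of the EGF receptor. Sgk1 (chr10:21882184-21999903, + strand) was at 58.9, 67.7, 74.2 and 79.4 RPKM in naive libraries, at 133, 138, 114 and 91.8 at 2 h, and at 71.0, 83.4, 76.6 and 80.0 at 24 h. The 2 h libraries were above all libraries of the other groups, and those at 24 h overlapped naive. The 2 h mean was 1.70-fold the naive mean, 119 ± 21.1 against 70.0 ± 8.83 (SD, n = 4 each), or 0.75 ± 0.13 (SE) in log2. Sgk1 fell from 2 h to 24 h by 0.60 ± 0.13 (SE) on the log2(RPKM + 1) scale, with an adjusted p of 0.00179. Its 24 h mean, 77.8 ± 5.31 (SD, n = 4), differed from naive by 0.15 ± 0.13 (SE, adjusted p = 0.341).

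Errfi1 (chr4:150853919-150868892, + strand) was at 1.51, 2.21, 1.63 and 1.28 RPKM in naive libraries, at 3.13, 2.20, 2.23 and 2.77 at 2 h, and at 1.61, 1.34, 1.46 and 1.39 at 24 h. Of the 2 h libraries 3 were above every naive library, replicates 2 and 3 lay next to naive replicate 2, and all 4 were above every 24 h library. The 2 h mean was 1.56-fold that of naive (2.58 ± 0.447 against 1.66 ± 0.394, SD, n = 4 each), a log2 fold change of 0.43 ± 0.11 (SE). Errfi1 fell from 2 h to 24 h by 0.54 ± 0.11 (SE) in log2, with an adjusted p of 0.00156, and by 0.81 with voom. Its 24 h mean of 1.45 ± 0.119 (SD, n = 4) differed from naive by -0.11 ± 0.11 (SE, adjusted p = 0.457).

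Ddit4, whose protein REDD1 restrains the growth kinase mTORC1 and which hypoxia and stress also induce, was close to the detection limit in naive libraries. Ddit4 (chr10:59949669-59951834, - strand) was at 0.135, 0.150, 1.19 and 0.485 RPKM in naive libraries, at 1.501, 1.32, 1.80 and 1.80 at 2 h, and at 0.791, 1.31, 0.810 and 1.04 at 24 h. All 2 h libraries were above every naive library and above every 24 h library, the last by a margin of 1.32 to 1.31 RPKM. Without its 2 h libraries Ddit4 would not have passed the filter, and the naive values rest on 2, 2, 15 and 5 reads. The 2 h mean was 3.28-fold the naive mean, 1.60 ± 0.237 against 0.490 ± 0.494 (SD, n = 4 each), and the log2 fold change was 0.86 ± 0.19 (SE), or 2.13 with voom on recovered reads, which adds no pseudocount of 1 RPKM. At 24 h, with a mean of 0.989 ± 0.245 (SD, n = 4), Ddit4 did not pass limma's test against naive (0.46 ± 0.19, SE, adjusted p = 0.0626). Its difference from 2 h, -0.39 ± 0.19 (SE), is a description, because the 2 h libraries carried the gene through the filter. Without naive replicate 3, which holds 15 of the naive reads, the difference from naive passed. It also passed with a pseudocount of 0.1 and with voom.

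**Figure D2:**
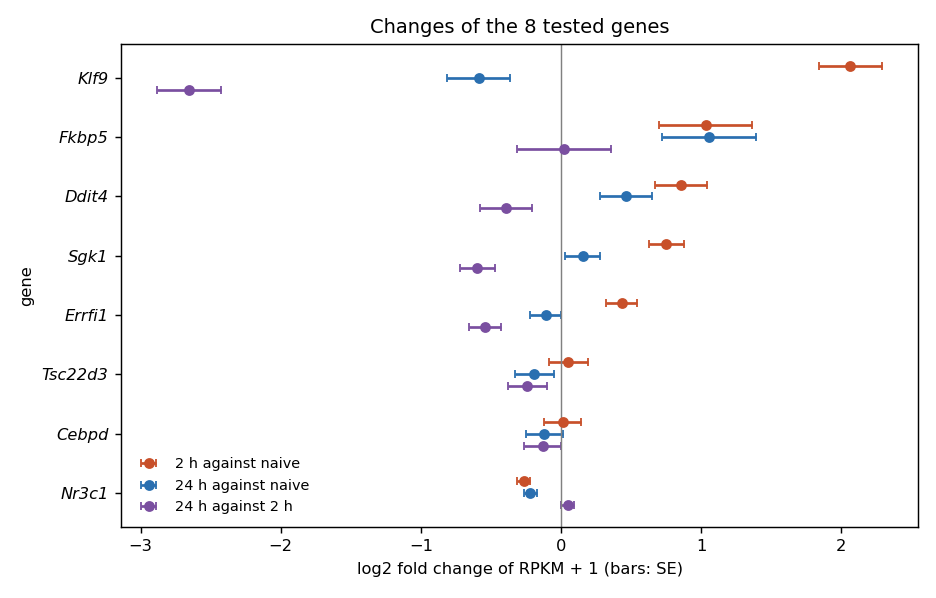
Log2 fold changes of RPKM + 1 (horizontal axis, bars SE) of the 8 tested genes (vertical axis) in the 3 comparisons, which share libraries with each other. Klf9 lies at 2.07 for 2 h against naive and at -2.65 for 24 h against 2 h, while Fkbp5 lies near 1 in both comparisons with naive.

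Tsc22d3 and Cebpd, both widely used as readouts of the receptor, did not separate the groups, and no difference exceeded the spread of the libraries. Tsc22d3 (chrX:140539528-140600659, - strand) was at 14.3, 17.6, 17.2 and 12.8 RPKM in naive libraries, at 17.5, 15.1, 19.05 and 12.8 at 2 h, and at 10.8, 13.1, 14.4 and 15.4 at 24 h. The groups overlapped in every comparison. Its means were 15.5 ± 2.32, 16.1 ± 2.73 and 13.4 ± 1.98 (SD, n = 4 each), a log2 difference of 0.05 ± 0.14 (SE) at 2 h against naive. The tests gave -0.19 ± 0.14 (SE, adjusted p = 0.289) at 24 h against naive and -0.24 ± 0.14 (SE, adjusted p = 0.164) at 24 h against 2 h.

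Cebpd (chr16:15887286-15891031, + strand), a transcription factor gene that inflammatory cytokines induce as well, was at 46.9, 40.9, 42.0 and 32.0 RPKM in naive libraries, at 35.5, 47.3, 48.1 and 33.0 at 2 h, and at 36.1, 38.4, 36.7 and 36.3 at 24 h. Here too the groups overlapped throughout. The log2 differences were 0.01 ± 0.13 (SE) at 2 h against naive, -0.12 ± 0.13 (SE, adjusted p = 0.499) at 24 h against naive and -0.13 ± 0.13 (SE, adjusted p = 0.436) at 24 h against 2 h. An exon of Spidr overlaps Cebpd on the opposite strand, and whether the counting used strand is not given in the sources used here, so reads of the 2 genes may be mixed. Zbtb16 (chr9:48654297-48836222, - strand), the gene of the zinc-finger factor PLZF, had 2 to 10 reads per library. Its RPKM was 0.0446 to 0.210 in naive libraries, 0.0568 to 0.191 at 2 h and 0.0859 to 0.185 at 24 h, and a difference was not detectable at this depth.

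At 2 h, 3 of the 8 tested members, Klf9, Sgk1 and Ddit4, had all 4 libraries above every naive library, and Nr3c1 had all 4 below. Leaving out naive replicate 2 brought the first count to 5, by adding Fkbp5 and Errfi1. Over all 11419 tested genes 14.0% lay wholly above naive at 2 h and 20.5% wholly below, and limma called 14.7% higher and 22.0% lower. Because the set was chosen on this comparison, nothing is read from these shares. Fkbp5 rose and Nr3c1 fell at 24 h against naive among the 7 members tested besides Klf9, where 25.3% of all tested genes were called higher and 20.6% lower. Sgk1 and Errfi1 fell at 24 h against 2 h among those 7, where 21.5% of all tested genes were called lower and 30.9% higher. Both 24 h comparisons share libraries with the one that chose the set. The 3 comparisons also share libraries with each other, so their values are set side by side and not correlated.

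The other genes known to be induced by glucocorticoids moved in both directions at 2 h, and more fell than rose by 24 h. Of 26 such genes 18 were tested. At 2 h against naive 7 rose and 5 fell (38.9% and 27.8%, beside 14.7% and 22.0% of all tested genes). The median log2 fold change was 0.14 beside -0.04 over all tested genes. Per1, a period gene of the circadian clock, was at 25.0, 14.0, 11.1 and 20.2 RPKM at 2 h and between 4.54 and 5.37 in naive libraries. Its mean was 3.45-fold higher at 2 h, a log2 fold change of 1.55 ± 0.22 (SE, adjusted p = 0.000323). The metal-binding metallothioneins rose too, Mt1 by 1.48 ± 0.29 (SE, adjusted p = 0.00247) and Mt2 by 2.43 ± 0.49 (SE, adjusted p = 0.00294) in log2. Foxo3, a transcription factor gene of the forkhead family, fell by 0.46 ± 0.09 (SE, adjusted p = 0.00294). The rises of Per1 and Mt2 at 2 h were known before this list was drawn up and are not independent of it.

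By 24 h, 1 of these 18 genes was higher than naive and 8 fell (5.56% and 44.4%, beside 25.3% and 20.6% of all tested genes). The median was -0.36 beside 0.00 over all tested genes. Txnip, the thioredoxin inhibitor, fell from 129 ± 25.4 to 49.8 ± 10.3 RPKM (SD, n = 4 each), -1.37 in log2 with an adjusted p of 8.92e-05. Mertk, the receptor for uptake of dying cells, fell by 0.58 ± 0.10 (SE, adjusted p = 0.000717) and Glul, glutamine synthetase, by 0.46 ± 0.10 (SE, adjusted p = 0.00366). The gene counted as higher, Lcn2, was at most 0.0908 RPKM in naive libraries, at most 0.123 at 2 h and at 1.30 to 2.06 at 24 h. It passed the filter only through its 24 h libraries and so had to differ, and its values are a description. Against 2 h, 2 of the 18 were higher, Lcn2 among them, and 11 fell at 24 h (11.1% and 61.1%, beside 30.9% and 21.5% of all tested genes). The median was -0.69 beside 0.05. Per1 fell by 1.73 ± 0.22 (SE, adjusted p = 4.16e-05), Glul by 0.80 ± 0.10 (SE, adjusted p = 5.57e-05) and Pdk4, a mitochondrial kinase gene of fuel choice, by 1.12 ± 0.17 (SE, adjusted p = 0.000168).

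**Figure D3:**
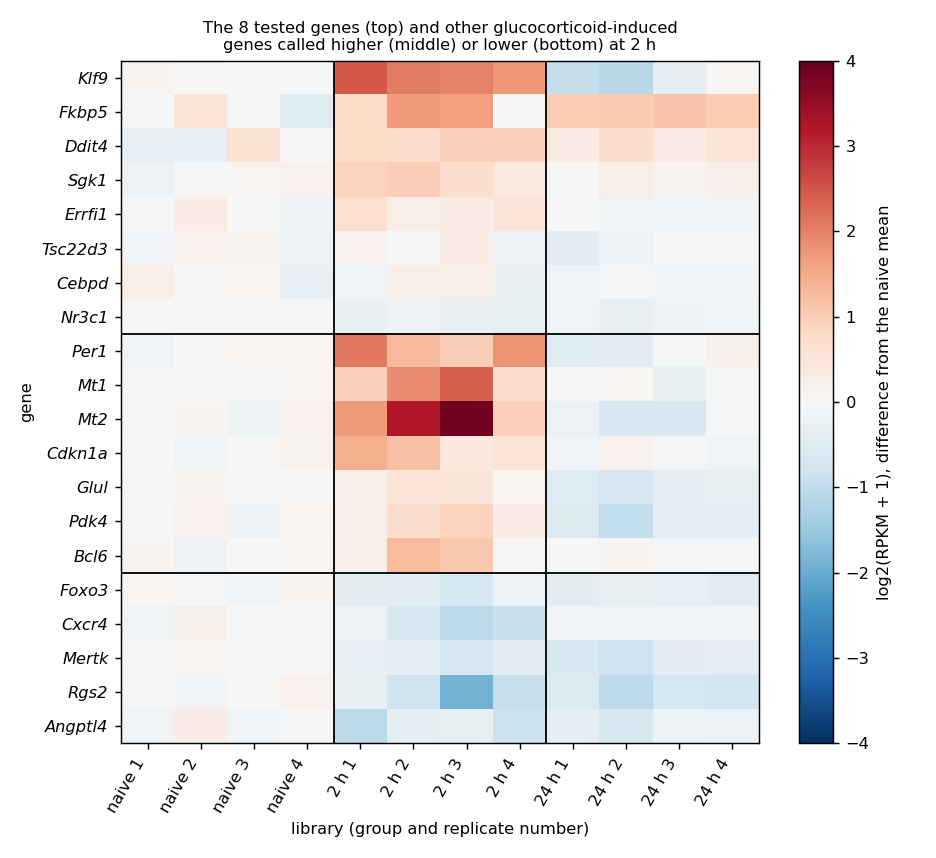
Difference of log2(RPKM + 1) from the naive mean (colour scale) for the 8 tested genes and for the 12 other glucocorticoid-induced genes that passed the test at 2 h (vertical axis) in each library (horizontal axis, group and replicate number). Klf9 and Per1 are high in all 4 libraries at 2 h, whereas Fkbp5, Mt1, Mt2 and Bcl6 are highest in replicates 2 and 3.

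Genes that both glucocorticoids and inflammatory signals induce as brakes were partly higher at 2 h. Of the 5 tested, 2 rose against naive (40.0%, beside 14.7% of all tested genes), with a median log2 fold change of 0.54. Nfkbia, the inhibitor that holds NF-kB in the cytoplasm, went from 47.8 ± 5.61 to 128 ± 32.3 RPKM (SD, n = 4 each), 1.38 ± 0.18 in log2 (SE, adjusted p = 0.000204). Tnfaip3, the ubiquitin-editing enzyme A20, rose by 0.55 ± 0.20 (SE, adjusted p = 0.0492), a call lost in 12 of 21 other settings, among them those without any 1 of the 4 naive or the 4 later libraries and without replicate 2 of the 2 h group. Without replicate 1 of the 2 h group its value was 0.30. Dusp1, the phosphatase that ends MAP kinase signals, was at 212, 177, 76.4 and 63.0 RPKM at 2 h against 60.6 to 93.5 in naive, so replicates 1 and 2 were high and the other two were not. By 24 h, 2 of the 5 had fallen below naive (40.0%, beside 20.6% of all tested genes), with a median of -0.55. Tnfaip3 fell by 0.83 ± 0.20 (SE, adjusted p = 0.00525) and Irak3, the brake on receptor-proximal kinases, by 0.29 ± 0.07 (SE, adjusted p = 0.00612). Against 2 h, 4 of the 5 fell at 24 h (80.0%, beside 21.5% of all tested genes), Tnfaip3, Nfkbia, Dusp1 and Zfp36, with a median of -0.96. The call of Dusp1 (-1.09 ± 0.34, SE, adjusted p = 0.0171) was lost without replicate 2 of the 2 h group. That of Zfp36, a gene of mRNA decay (-0.96 ± 0.33, SE, adjusted p = 0.0291), was lost in 6 of 21 other settings, among them those without replicate 1 or 2 of the 2 h group and without replicate 2 or 4 of the 24 h group.

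Inflammatory genes that glucocorticoids are known to repress were partly higher at 2 h. Of 16 such genes 10 were tested, and 6, Ccl4 included, were called higher than naive, beside 14.7% of all tested genes. Of the 10, 0 were called lower, beside 22.0% of all tested genes, and the median log2 fold change was 1.03. Ccl3, a chemokine, went from 14.5 ± 4.92 to 87.9 ± 27.7 RPKM (SD, n = 4 each), 2.51 ± 0.24 in log2 (SE, adjusted p = 2.49e-05), and Tnf rose by 1.04 ± 0.13 (SE, adjusted p = 0.000185). Il1a rose by 1.42 ± 0.19 (SE, adjusted p = 0.000223). The related chemokine Ccl4 passed the filter through its 2 h libraries and is given as a description, with means of 0.984 ± 0.416 RPKM in naive and 4.32 ± 0.752 at 2 h (SD, n = 4 each). Among the 4 that did not pass, Ccl5 was at 1.74 RPKM in naive and 0.957 at 2 h on average. In the comparison of 24 h with naive 1 of the 10 passed, Il1b, which fell by 1.32 ± 0.28 (SE, adjusted p = 0.00233). Of all tested genes 25.3% were called higher and 20.6% lower there, and the median of the 10 was -0.32. From 2 h to 24 h, 8 of the 10 were called lower (80.0%, beside 21.5% of all tested genes), with a median of -1.49, led by Ccl3, Tnf and Il1b. Ccl4 is among the 8, but its fall is a description, because its 2 h libraries carried it through the filter.

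Chaperones and co-chaperones of the receptor did not pass the test at 2 h and were partly higher at 24 h. At 2 h against naive 0 of 8 were called by limma on RPKM, beside 14.7% of all tested genes called higher and 22.0% lower. Of the 8, 0 were at an unadjusted p under 0.05 and 0 were called by limma's voom on recovered reads, with a median of -0.01. Of the 8, 4 rose at 24 h against naive, beside 25.3% of all tested genes, with a median of 0.32. Bag1, a regulator of Hsp70, rose by 0.47 ± 0.06 (SE, adjusted p = 4.62e-05), Ptges3, the p23 component of the mature complex, by 0.42 ± 0.09 (SE, adjusted p = 0.00201) and Hspa4 by 0.28 ± 0.07 (SE, adjusted p = 0.00931). Hsp90aa1, one of the genes of Hsp90, rose by 0.52 ± 0.19 (SE, adjusted p = 0.0422), a call lost in 8 of 21 other settings, among them those without naive replicate 1, 3 or 4, without replicate 3 of the 2 h group and without replicate 2 or 4 of the 24 h group. Against 2 h, 6 of the 8 rose at 24 h (75.0%, beside 30.9% of all tested genes), with a median of 0.41. Among them was the scaffold Stip1, by 0.66 ± 0.19 (SE, adjusted p = 0.0123).

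Coregulators that the receptor recruits on DNA were called lower at 2 h at a share not far from that of all tested genes. Of 10 tested, 3 fell at 2 h against naive (30.0%, beside 22.0% of all tested genes). The histone acetyltransferase gene Ep300 fell by 0.40 ± 0.06 (SE, adjusted p = 0.000276) and the coactivator gene Ncoa3 by 0.34 ± 0.08 (SE, adjusted p = 0.00522). Nrip1 fell by 0.52 ± 0.17 (SE, adjusted p = 0.0296), a call lost in 8 of 21 other settings, among them those without naive replicate 2, 3 or 4 and without replicate 1, 2 or 3 of the 2 h group. In the comparison of 24 h with naive 1 rose and 4 fell, beside 25.3% and 20.6% of all tested genes. The median was -0.18, and the falls were those of Ncor1, Ep300, Ncoa1 and Crebbp. From 2 h to 24 h, Carm1, a methyltransferase gene, rose by 0.27 ± 0.06 (SE, adjusted p = 0.00266) and Ep300 by 0.18 ± 0.06 (SE, adjusted p = 0.0177). Crebbp fell by 0.32 ± 0.08 (SE, adjusted p = 0.00432) and Ncoa1 by 0.42 ± 0.11 (SE, adjusted p = 0.00789).

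Of 6 genes listed for the access of hormone to the receptor, which include the related receptor gene Nr3c2, 1 was tested. This gene, H6pd, which supplies the cofactor of the enzyme that regenerates active hormone, was called higher at 24 h against naive (0.26 ± 0.10, SE, adjusted p = 0.0471) and against 2 h (0.28 ± 0.10, SE, adjusted p = 0.0316). These calls were lost in 11 and in 9 of 20 other settings, among them, for both, those without replicate 4 of the 2 h group and without replicate 1, 3 or 4 of the 24 h group. The first was also lost without naive replicate 2, 3 or 4 or replicate 2 of the 2 h group, and the second without replicate 1 of the 2 h group. The regenerating enzyme's own gene, Hsd11b1, was below the filter, at 0.279 to 0.702 RPKM in naive libraries and 0.599 to 1.08 at 2 h.

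**Figure D4:**
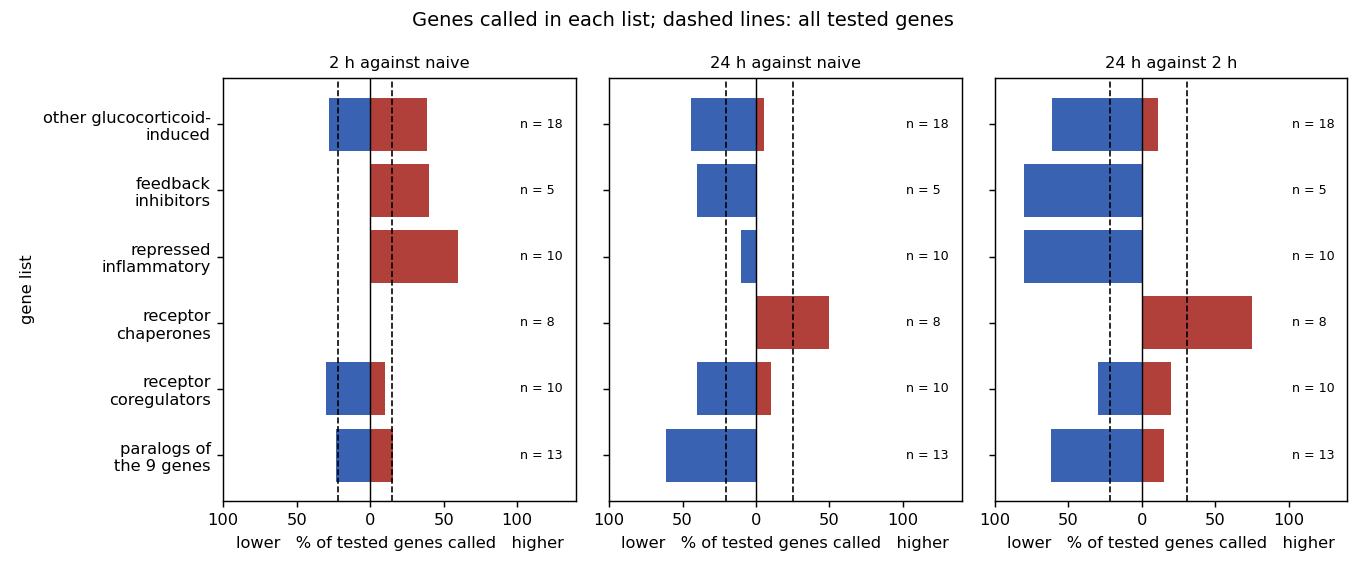
Share of tested genes called higher (to the right) or lower (to the left) by limma, in percent (horizontal axes), for 6 gene lists (vertical axis) in the 3 comparisons, with the number tested at the right of each bar; dashed lines mark the shares over all tested genes. At 24 h against 2 h, 8 of 10 repressed inflammatory genes and 11 of 18 other glucocorticoid-induced genes were lower, beside 21.5% of all tested genes. The 8 include Ccl4, which passed the filter through its 2 h libraries.

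Paralogs, genes related in sequence to the members, moved in both directions at 2 h. Of 13 tested, 2 rose and 3 fell at 2 h against naive (15.4% and 23.1%, close to the 14.7% and 22.0% over all tested genes), with a median of -0.10. Beside Klf9, its family member Klf16 rose by 0.48 ± 0.10 (SE, adjusted p = 0.00283) at 2 h. Beside Sgk1, Sgk3 fell by 0.42 ± 0.08 (SE, adjusted p = 0.00279). Beside Cebpd, Cebpb rose by 0.58 ± 0.15 (SE, adjusted p = 0.0119) and Cebpg fell by 1.01 ± 0.09 (SE, adjusted p = 1.38e-05). At 24 h against naive 8 of the 13 fell (61.5%, beside 20.6% of all tested genes), with a median of -0.38. Among them were Cebpa, which went from 218 ± 12.7 to 97.3 ± 6.16 RPKM (SD, n = 4 each) with an adjusted p of 6.35e-07, and Tsc22d1, a relative of Tsc22d3, which fell by 0.65 ± 0.06 (SE, adjusted p = 5.81e-06). At 24 h against 2 h, 2 rose and 8 fell (15.4% and 61.5%, beside 30.9% and 21.5% of all tested genes), with a median of -0.48.

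The genes whose pattern over the 12 libraries lay closest to that of Klf9 were sought among all tested genes, by the root mean square difference of log2(RPKM + 1) after each gene was centred on its naive mean. The nearest 5 were Per2, another period gene of the clock, at a difference of 0.337, the growth factor gene Pdgfb at 0.385, the arginase gene Arg2 at 0.426, and the transcription factor genes Atf3 at 0.433 and Maff at 0.464. Per2 went from 5.18 ± 0.957 RPKM in naive libraries to 21.0 ± 5.83 at 2 h and 2.67 ± 0.315 at 24 h (SD, n = 4 each). Pdgfb went from 1.18 ± 0.206 to 5.29 ± 0.621 and then 0.548 ± 0.289 RPKM (SD, n = 4 each). All 5 were picked for being like Klf9, so their courses are given without a test.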

How the data were processed

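Polyadenylated RNA of alveolar macrophages was sequenced in 12 libraries, 4 in each of 3 groups, which were read from the time point labels. The authors deposited RPKM values per Ensembl gene. bcl2fastq, TopHat2 and HTSeq were used with mm10, per the submitters' processing notes. For versions, annotation, gene length and filters, nothing is given in the sources used here. Symbols and positions came from GENCODE, and promoter windows from RefSeq.

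RPKM values were whole multiples of a step per library, which gave library totals and whole reads for 11419 of 11419 tested genes (100.0%, within 0.02 of a read). A count of 0 allows up to 3 reads, an RPKM of 0.250 to 0.491 for a gene of 1 kb, counting error only. No value above 0 was shared by 2 libraries. The gene length implied by the values was 0.32 (Cebpd) to 3.62 (Sgk1) times the annotated exon length, so RPKM levels of different genes were not compared.

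A linear model on log2(RPKM + 1) was fitted with limma 3.58.1 (R 4.3.3), all 12 libraries together, with a variance trend, two-sided tests and Benjamini-Hochberg adjustment over all tested genes at 0.05. This scale understates changes of low genes, and folds are ratios of mean RPKM. The steps were tested on simulated data. The deposited unit is RPKM, so the main test is on log values, and the recovered reads entered only through voom. Other settings were pseudocounts, filters, scalings, a replicate block, voom on recovered reads, fits of 2 groups alone and leaving out each library.

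The members and lists were chosen with earlier results of these data known. Named genes are the 9 members, up to 4 genes per list and comparison with the smallest p among those that passed, and the 5 most like Klf9. Hsd11b1, Dusp1 at 2 h and the marker gene Nr4a1 were named after their values were seen, as were the rest of the genes drawn by library. Fkbp4, Hsd11b1 and Nr3c2 are each in 2 lists. The results of 1 listed coregulator gene are not reported here.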

Additional observations from a re-analysis of the deposited data

Results flagged for a closer look

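Nr3c1 had a library apart from the rest of its group at both times after reperfusion. At 2 h the highest library, replicate 2, was at 7.70 RPKM while the other three were between 7.24 and 7.28. At 24 h the lowest library, also numbered 2, was at 7.14 RPKM while the other three were between 7.75 and 7.86. In each case the gap to the nearest library, divided by the range of the group, was above Dixon's critical value for 4 samples. Of 27 groups checked 2 met this, where chance gives about 5%. All these values were below the lowest naive library, at 8.59 RPKM.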

How the results depend on the processing

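Across 21 other settings, 12 of which left out 1 library, Klf9 kept its direction in each comparison, from 1.94 to 2.20 at 2 h against naive. The count of members wholly above naive at 2 h, 3, was between 3 and 5 when 1 library was left out, with 5 without naive replicate 2. The count of members called at 24 h against naive, 2, fell to 1 with no filter and was between 1 and 3 when 1 library was left out. At 24 h against 2 h the count, 2, was 1 with the filter at 5 RPKM, which leaves Errfi1 untested, and between 2 and 3 when 1 library was left out. The difference of Fkbp5 at 24 h against 2 h, 0.02, was -0.0466 with median-ratio scaling, -0.0315 with quantile normalisation and from -0.33 to 0.25 when 1 library was left out. That of Nr3c1, 0.05, was -0.0164 and -0.0193. The cause was not tested. The falls of Sgk1 and Errfi1 from 2 h to 24 h and of Nr3c1 at 24 h against naive held in every setting that tested them. At 2 h against naive the untested difference of Nr3c1, -0.27, was smaller with median-ratio scaling, at -0.22. Median-ratio scaling gave 2062 higher and 2043 lower genes at 2 h (50.2% higher) in place of 1675 and 2514 (40.0%). Same-numbered libraries did not deviate together, with correlations of -0.0426 to 0.0548 over 12 pairs, and 2 libraries were closest to their own number. With the replicate block, 2 members were called at 24 h against naive and 2 at 24 h against 2 h, and 1636 genes were higher and 2384 lower at 2 h.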

Other observations

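The 4 libraries at 2 h did not rank alike for all genes, a pattern noticed after the values were seen and given without a test. Fkbp5 was at 18.9, 36.6, 35.0 and 10.4 RPKM in replicates 1 to 4, Mt1 at 500, 969, 1351 and 423, and Mt2 at 178, 511, 803 and 107. Bcl6, a transcriptional repressor gene, was at 2.43, 6.18, 5.37 and 2.09 RPKM, and Pdk4 at 6.79, 9.58, 11.3 and 6.91. These 5 genes were highest in replicates 2 and 3. Zfp36 was at 442, 423, 166 and 144 RPKM against 193 to 241 in naive libraries, and Dusp1 was likewise high in replicates 1 and 2.

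The gene whose pattern over the 12 libraries lay closest to that of Fkbp5 was Klhl6, at a root mean square log2 difference of 0.307. It stood at 8.81 ± 1.04 RPKM in naive libraries, 20.8 ± 5.72 at 2 h and 19.6 ± 1.202 at 24 h (SD, n = 4 each). The next was Odc1, the first enzyme of polyamine synthesis, at 0.327, with 19.9 ± 2.87, 40.3 ± 10.7 and 49.2 ± 8.69 RPKM. Both were picked for their likeness after the values were seen.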
